A study of Mus musculus with 3 samples.

Results

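The genes described here are the ligands and receptors that steer growing axons, chosen by symbol from the gene list of the libraries: the semaphorins, plexins and neuropilins, the ephrins and Eph receptors, the Slits and Robos, and the netrins, netrin-Gs, Dcc and Unc5 receptors. There were 71 of them among 32285 genes, namely 20 semaphorins, 9 plexins, 2 neuropilins, 8 ephrins, 14 Eph receptors, 3 Slits, 4 Robos, 4 netrins, Dcc, 4 Unc5 receptors and 2 netrin-Gs. RNA from single nuclei was sequenced in 3 libraries of hippocampus, each from 1 adult female mouse that carried the genotype Scn8aD/+, written for the gene of a voltage-gated sodium channel, and that was labelled post-onset. All 3 mice had this 1 genotype and stage, so each comparison below sets classes of nuclei of the same animals against each other, and pre-onset and control animals were not analysed here. The labels put each mouse in a batch of its own, so animal and batch cannot be told apart. Each value is a count of unique molecular identifiers (UMIs, 1 per captured RNA molecule), summed over the nuclei of a class in a mouse and divided by the total UMIs of that class and mouse (CPM, counts per 1e+06 UMIs). Nuclei were placed in classes by clustering without these 71 genes, and a class is called granule-like, CA1-like and so on after the marker genes that set it apart.

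Semaphorins signal through plexins, with neuropilins as co-receptors of the secreted class 3, and mostly repel axons. Ephrins and Eph receptors signal at cell contacts, Slits repel axons through Robos, and netrins attract through Dcc and repel through Unc5 receptors. In the adult hippocampus members of these families are known to remain on neurons and glia, where they act at synapses and in myelinating cells, and during development they sort the mossy fibers of granule cells and the inputs to CA1 and CA3.

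The libraries held 8863, 13904 and 4659 barcodes, and their depth differed, with a median of 8859, 1711 and 25775 UMIs per barcode in mice 1, 2 and 3. Barcode sequences shared between libraries numbered 13 to 36 per pair. After filtering, 7889, 11733 and 4393 nuclei remained, of which 323, 3039 and 24 joined no named class. Mouse 2 stood apart as the shallowest library, and RNA of other cells was most visible there: the summed level of 10 glutamatergic markers in oligodendrocyte-like nuclei was 24.0%, 57.0% and 23.4% of that in glutamatergic nuclei of the same mouse. Of the 78 clusters, 47 took at least 80% of their nuclei from 1 mouse, so classes, not clusters, were compared. CA1-like nuclei also carried astrocyte markers, led by Gpc5, at 2870.3, 2036 and 2758 CPM summed over 10 markers, against 19459, 8642 and 21850 CPM in astrocyte-like nuclei, and 1 of the CA1-like clusters, with 595 nuclei of mouse 3, had no CA1 marker among its 10 leading genes. Because 3′ libraries of nuclear RNA can favour long genes rich in introns, levels are compared between classes for 1 gene and never between genes; the members span 4.6 to 1097.4 kb, with a median of 56.6 kb.

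Promoter sequence was available for 61 of the 71 genes (RefSeq, GRCm38.p6), and 4 windows of the 250 bases before the start site are shown because their genes set classes apart in the comparisons below: Nrp2 and Sema5a were higher in CA3-like than in CA1-like nuclei, Ephb1 was higher in CA3-like and in oligodendrocyte-like nuclei, and Plxnb3 was higher in oligodendrocyte-like nuclei than in their precursors. They lie at chr1:62703067-62703316 (plus strand, Nrp2), chr15:32244563-32244812 (plus strand, Sema5a), chr9:102354694-102354943 (minus strand, Ephb1) and chrX:73756853-73757102 (plus strand, Plxnb3), and capitals mark each CG, read 5′ to 3′ on the strand of the gene.
Nrp2: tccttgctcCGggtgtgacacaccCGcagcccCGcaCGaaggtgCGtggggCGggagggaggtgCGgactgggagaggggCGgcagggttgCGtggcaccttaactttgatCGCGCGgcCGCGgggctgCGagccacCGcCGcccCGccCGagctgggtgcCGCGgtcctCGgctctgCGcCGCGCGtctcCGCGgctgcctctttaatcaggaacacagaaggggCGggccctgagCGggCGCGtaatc
Sema5a: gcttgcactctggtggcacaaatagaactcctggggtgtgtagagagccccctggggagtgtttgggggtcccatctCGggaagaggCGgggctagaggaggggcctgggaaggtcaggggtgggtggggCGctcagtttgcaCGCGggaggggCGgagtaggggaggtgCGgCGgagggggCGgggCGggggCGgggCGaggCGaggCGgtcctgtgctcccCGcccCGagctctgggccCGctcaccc
Ephb1: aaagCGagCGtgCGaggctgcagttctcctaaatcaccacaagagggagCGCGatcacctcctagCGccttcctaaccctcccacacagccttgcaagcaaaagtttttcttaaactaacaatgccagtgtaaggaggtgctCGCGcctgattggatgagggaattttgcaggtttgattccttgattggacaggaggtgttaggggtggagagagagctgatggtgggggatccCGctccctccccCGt
Plxnb3: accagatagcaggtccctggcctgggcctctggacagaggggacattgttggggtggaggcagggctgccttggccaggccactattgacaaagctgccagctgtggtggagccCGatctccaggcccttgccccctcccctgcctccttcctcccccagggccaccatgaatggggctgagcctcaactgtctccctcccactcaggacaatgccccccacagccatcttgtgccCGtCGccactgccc

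These windows hold 32 CG in Nrp2, 17 in Sema5a, 10 in Ephb1 and 3 in Plxnb3. CG reads the same on both strands, so 1 search covers both. The median over the 61 windows was 16 CG, against 6 over all 27025 promoter windows of the same length, and 75.4% of the members held at least 10, against 38.2% of all. The sets were picked by unlike rules: for members the start site nearest the annotated gene start, for all genes the first one listed. The windows of Nrp2 and Plxnb3 thus mark the CG-rich and CG-poor ends of these 4, and the counts describe the letters only.

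The levels over 16 classes were first described gene by gene, as means over the 3 mice with the SD. Of the 71 genes, 24 had the same highest class in all 3 mice, and in 16 the values of that class did not overlap those of the class next in order. Both classes were picked by these same values. Neither these counts nor those by class and family below were made over all genes. The highest mean was in endothelial-like nuclei for 12 genes, in oligodendrocyte-like for 9, in CA3-like for 7, in Lamp5-like and Cajal-Retzius-like for 6 each, in granule-like, Vip-like and astrocyte-like for 5 each, in CA1-like, CA2-like, OPC-like (oligodendrocyte precursor) and microglia-like for 3 each, in Sst-like for 2, in Cnr1-like and subicular or cortical glutamatergic-like for 1 each, and in Pvalb-like for none. Endothelial-like nuclei numbered 22, 25 and 17, so those 12 means rest on few UMIs. Their mural markers (8 genes) summed to 1880, 535 and 514 CPM. Glutamatergic markers stood at 79.2%, 79.6% and 63.2% of the glutamatergic level. 1 cluster, of 5, 19 and 3 nuclei, was led by Acta2, with mural as its next class. Another, of 11, 25 and 1 nuclei, had 4 endothelial markers among its 10 leading genes but stayed unnamed. Their part in the 12 means was not tested. Robo4, an endothelial member of the Robo family named here after its values were seen, had 3, 1 and 2 UMIs in endothelial-like nuclei, at 51.3, 24.3 and 27.8 CPM.

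**Figure D1:**
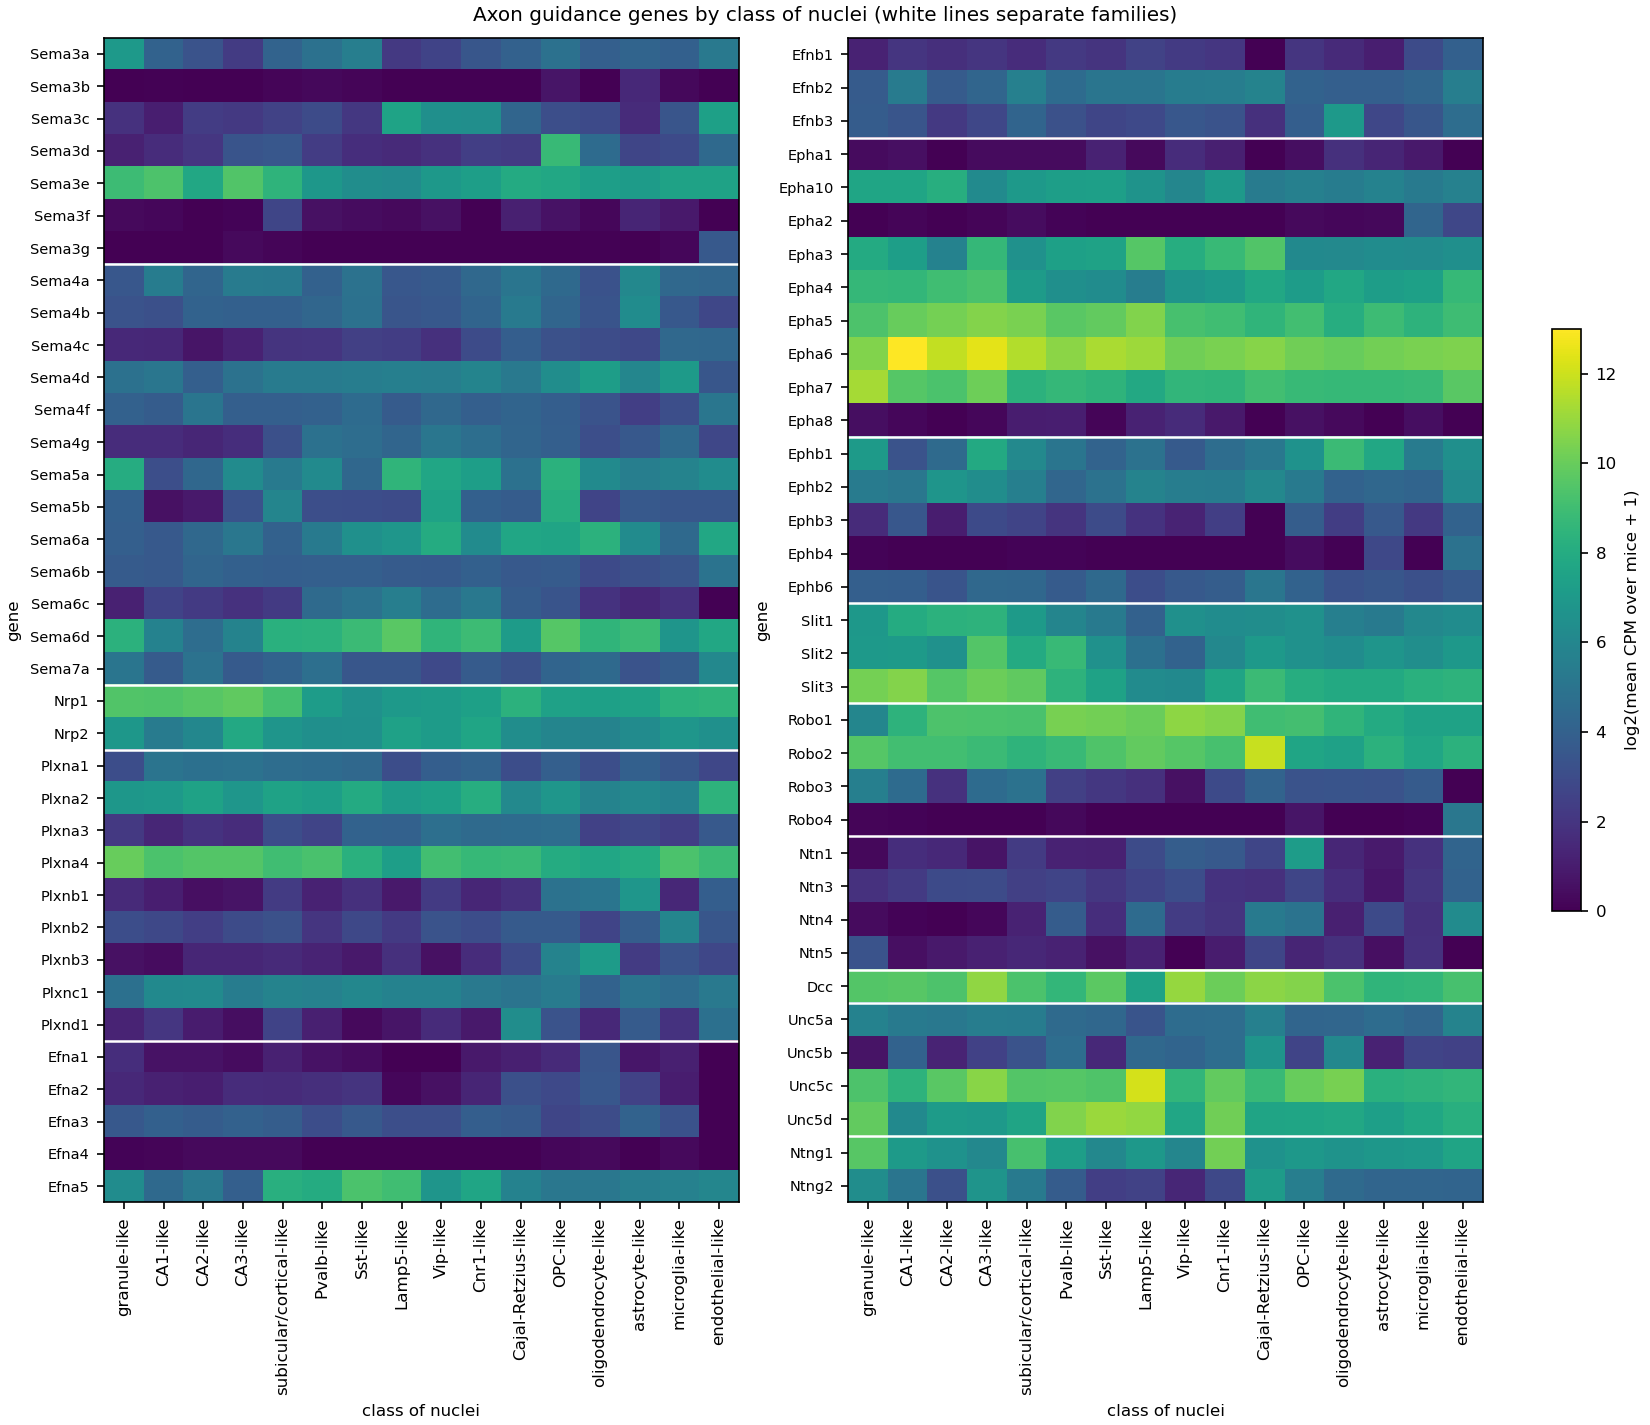
Mean level of the 71 genes in 16 classes of nuclei, as log2(mean CPM over the mice + 1) on the color scale, 1 row per gene, with white lines between families. Epha6 is brightest in the CA1-like column, Unc5c in Lamp5-like, Robo2 in Cajal-Retzius-like, and Ntn1 and Sema3d in OPC-like.

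Among the secreted class 3 semaphorins, levels were highest in different classes from gene to gene. Sema3a, the founding axon repellent, averaged 131 ± 112 CPM (SD, n = 3) in granule-like nuclei, with 59.9, 74.1 and 259.8 CPM in mice 1, 2 and 3, and 46.7 in Sst-like nuclei, the next class. Sema3c averaged 182 ± 83.4 CPM in Lamp5-like and 165 ± 102 in endothelial-like nuclei, and the values of these 2 classes overlapped. Sema3d stood at 369, 221 and 701 CPM in OPC-like nuclei, above 22.7 CPM in oligodendrocyte-like nuclei, the next class. Sema3e, the ligand of plexin D1, averaged 709.7 ± 466 CPM in CA3-like and 664 ± 347 in CA1-like nuclei, with overlapping values. Sema3b, Sema3f and Sema3g averaged under 50 CPM in every class.

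Of the 13 membrane-bound semaphorins of classes 4 to 7, 6 had their highest mean in glia-like, 4 in neuron-like and 3 in endothelial-like nuclei. Sema4a averaged 67.2 ± 16.9 and Sema4b 78.3 ± 27.9 CPM in astrocyte-like nuclei, their highest class, and Sema4d, a ligand of plexin B1, averaged 149 ± 58.5 CPM in oligodendrocyte-like nuclei beside 133 in microglia-like nuclei. Sema5b stood at 275, 213 and 323 CPM in OPC-like nuclei, above Vip-like nuclei with a mean of 178, and at 0.474 in CA1-like nuclei, the lowest class. Sema5a averaged 359 ± 87.5 CPM in Lamp5-like and 312 ± 133 in OPC-like nuclei, and Sema6d averaged 811 ± 86.2 and 750.5 ± 277 CPM in the same 2 classes, with overlapping values for both genes. Sema6a averaged 326 ± 191 CPM in oligodendrocyte-like nuclei and was lowest in CA1-like nuclei, at 11.6. Sema7a, which is anchored to the membrane by a lipid, averaged 66.8 ± 17.4 CPM in endothelial-like nuclei.

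The receptors of the semaphorins showed the B plexins in glia. Plexin B1 (Plxnb1) stood at 157, 56.3 and 127 CPM in astrocyte-like nuclei, plexin B2 (Plxnb2) at 101, 24.4 and 54.5 in microglia-like nuclei and plexin B3 (Plxnb3) at 209, 82.7 and 129 in oligodendrocyte-like nuclei. In each of these 3 genes the highest class did not overlap the next, whose means were 31.9 CPM (oligodendrocyte-like), 13.1 (astrocyte-like) and 55.6 (OPC-like). Plxnd1, the receptor of Sema3e, stood at 114, 63.6 and 71.9 CPM in Cajal-Retzius-like nuclei and averaged 0.237 CPM in Sst-like nuclei, its lowest class. Plxna4, a partner of neuropilins, averaged 1003 ± 375 CPM in granule-like nuclei, and Plxnc1, the receptor of Sema7a, 72.9 ± 19.3 CPM in CA2-like and 71.4 in CA1-like nuclei. Nrp1 averaged 902 ± 304 CPM and Nrp2 226 ± 34.1 CPM in CA3-like nuclei, their highest class, with overlap of the next class in both.

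In the Eph family, 5 of the 9 receptors of the A group had their highest mean in granule-like or CA-like nuclei, and Epha1, Epha2, Epha3 and Epha8 had it in other classes. Epha6 averaged 8169.7 ± 1603 CPM in CA1-like nuclei (7916, 9884 and 6708 in mice 1, 2 and 3), above CA3-like nuclei at 5711 and oligodendrocyte-like nuclei at 1016, its lowest class. Epha4, a receptor for ephrins of both groups, stood at 643, 612 and 590.1 CPM in CA3-like nuclei, above CA2-like nuclei at 522. Epha7 averaged 2421 ± 1302 CPM in granule-like nuclei and was highest there in all 3 mice, and Epha3 averaged 746 ± 149 CPM in Lamp5-like and 700.2 in Cajal-Retzius-like nuclei. Ephb1 averaged 466 ± 103 CPM in oligodendrocyte-like nuclei and 8.90 in CA1-like nuclei. Of the ephrins, the ligands of these receptors, Efna5 averaged 634 ± 159 CPM in Sst-like nuclei, and Efnb3 stood at 212, 77.9 and 102 in oligodendrocyte-like nuclei, against a mean of 24.1 in the next class. Efna1 to Efna4 averaged under 50 CPM in every class.

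The 3 Slits had their highest means in CA-like nuclei, and the 4 Robos had theirs in 4 different classes, with Robo4 in endothelial-like nuclei. Slit3 stood at 1444, 1576 and 1542 CPM in CA1-like nuclei, above granule-like nuclei at 1259.9, and Slit1 and Slit2 averaged 333 ± 87.8 and 723 ± 338 CPM in CA3-like nuclei. Robo2, their receptor, stood at 3957, 2214 and 5246 CPM in Cajal-Retzius-like nuclei, against a mean of 938 in Lamp5-like nuclei, the next class. Robo1 averaged 1751 ± 36.6 CPM in Vip-like and 1553 ± 345 in Cnr1-like nuclei, which overlapped, and 61.7 in granule-like nuclei, its lowest class.

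Of the netrins and their receptors, Ntn1, the secreted attractant, stood at 220.3, 59.7 and 157 CPM in OPC-like nuclei and averaged 0.234 in granule-like nuclei. Unc5c, a netrin receptor that mediates repulsion, stood at 4987, 4075 and 4544 CPM in Lamp5-like nuclei, above CA3-like nuclei at 1669.6. Unc5d averaged 2098 ± 140.1 CPM in Sst-like and 1917 ± 136 in Lamp5-like nuclei, and Unc5b 105 ± 22.7 CPM in Cajal-Retzius-like nuclei. Dcc, the attractive receptor, averaged 1957 ± 448 CPM in Vip-like and 1862 ± 329 in CA3-like nuclei, and Vip-like nuclei, first by the mean, were highest in 0 of the 3 mice. Ntng1, a lipid-anchored netrin-G that binds partners across synapses, averaged 1193 ± 327 CPM in Cnr1-like and 799 ± 208 in granule-like nuclei, and Ntng2 averaged 139 ± 35.5 CPM in Cajal-Retzius-like nuclei.

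Classes were then compared in 4 pairs with edgeR's quasi-likelihood test on the summed counts, with mouse as a block, and p-values were adjusted by Benjamini and Hochberg over every gene in the fit. A gene is called when its adjusted p is under 0.05 and its log2 fold change is at least 1 either way. Of the 71 genes, 53 had enough counts to be tested in all 4 comparisons, 7 in none, 46 were called in at least 1 comparison and 7 in 3: Ephb1, Sema3d, Sema5a, Sema5b, Sema6c, Unc5b and Unc5d. No gene was called in all 4. The 25 genes called in none were Efna2, Efna3, Efnb1, Epha5, Epha8, Ephb6, Ntn3, Plxna2, Plxna4, Plxnb1, Plxnb2, Robo2, Sema4b, Sema4c, Sema4d, Sema4f, Sema6b and Sema7a, and the 7 never tested, Efna4, Epha1, Epha2, Ephb4, Robo4, Sema3b and Sema3g. The comparisons share nuclei, so calls in several of them are not separate evidence.

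Granule-like nuclei, the dentate neurons that send the mossy fibers, differed from CA pyramidal-like nuclei (CA1-, CA2- and CA3-like together) in Sema3a, Sema5a, Sema5b, Sema6d, Ntng1 and Unc5d, which were higher, and in Robo1, Epha6, Slit1, Slit2, Sema3d, Sema4a and Sema6c, which were lower. The makeup of the pyramidal-like pool differed between mice. In mice 1, 2 and 3 it held 961, 196 and 596 CA1-like, 58, 137 and 28 CA2-like, and 243, 348 and 173 CA3-like nuclei. Of the 4 class 3 and 13 membrane-bound semaphorins tested, 4 were called higher and 3 lower. Of the 61 members tested, 23 were called, 10 higher and 13 lower in granule-like nuclei; over all 16214 genes tested 17.4% were called, 5.89% higher and 11.5% lower. The members' share was 37.7%, and their median absolute log2 fold change was 0.76, against 0.39 over all genes. The values of the 2 classes did not overlap between mice for 19 of the 23, a count among called members only that was not made over all genes.

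Among the ligands, Sema3a stood at 59.9, 74.1 and 259.8 CPM in granule-like nuclei of mice 1, 2 and 3 and at 7.53, 9.20 and 19.9 in CA pyramidal-like nuclei. Every granule-like value was above every pyramidal-like value, with mouse 3 highest in both, and the log2 fold change was 3.28, with an SE of 0.20 and an adjusted p of 0.000193. Sema5a, a transmembrane semaphorin with thrombospondin repeats, stood at 337, 233 and 209 against 16.9, 44.6 and 28.3 CPM (log2 fold change 3.21, with an SE of 0.36 and an adjusted p of 0.00149). Sema6d, also transmembrane, stood at 425, 329.9 and 219.8 against 34.9, 34.2 and 92.9 CPM (log2 fold change 2.74, with an SE of 0.47 and an adjusted p of 0.00763). Both genes were higher in granule-like nuclei of all 3 mice without overlap. Ntng1 stood at 1038, 698 and 661 CPM in granule-like and 109.9, 81.5 and 147 in pyramidal-like nuclei (log2 fold change 2.86, with an SE of 0.24 and an adjusted p of 0.000512). Sema5b, Efna5 and Ntn5 were called higher as well, by 2.41, 2.00 and 3.47 on the log2 scale. Slit1 and Slit2 were called lower, with log2 fold changes of -1.44 and -1.40, whereas Slit3 stood at 1245, 1249 and 1286 CPM in granule-like and 1309.6, 1273 and 1393 in pyramidal-like nuclei and did not pass the test (adjusted p = 0.819). Other ligands called lower were Ntn1 (-2.54), Sema4a (-2.19), Sema3d (-1.80), Sema6c (-1.58) and Efnb2 (-1.38). Ntn1 rested on 7, 0 and 13 UMIs in granule-like and 13, 6 and 162 in pyramidal-like nuclei.

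Among the receptors, Robo1 stood at 81.6, 60.4 and 43.1 CPM in granule-like nuclei of mice 1, 2 and 3 against 468, 481 and 408 in pyramidal-like nuclei. The groups lay far apart, with a log2 fold change of -2.90, with an SE of 0.17 and an adjusted p of 0.000180. Robo3, a divergent Robo known from commissural axons, was called higher instead, by 1.34. Unc5d stood at 1033, 1002 and 789.7 against 42.8, 92.3 and 149.6 CPM (log2 fold change 3.50, with an SE of 0.41 and an adjusted p of 0.00178), and Unc5b, its relative, at 1.04, 0.610 and 0.193 against 3.47, 10.4 and 21.0 CPM (log2 fold change -4.11, with an SE of 0.93 and an adjusted p of 0.0213), so that these 2 netrin receptors were called in opposite directions. Epha7 stood at 1349, 2046 and 3869 CPM in granule-like and 671, 777 and 1098 in pyramidal-like nuclei (log2 fold change 1.43, with an SE of 0.20 and an adjusted p of 0.00384). Epha6 stood at 1242, 1272 and 1994 against 6900.1, 7751 and 6314 CPM (log2 fold change -2.23, with an SE of 0.23 and an adjusted p of 0.00117), the reverse order of Epha7 within the same receptor group. Plxna1 (-2.14), Plxnc1 (-1.26) and Ephb3 (-1.93) were the other receptors called lower, and neither neuropilin was called: Nrp1 stood at 406, 599 and 1099 CPM against 489.8, 615 and 1144.

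**Figure D2:**
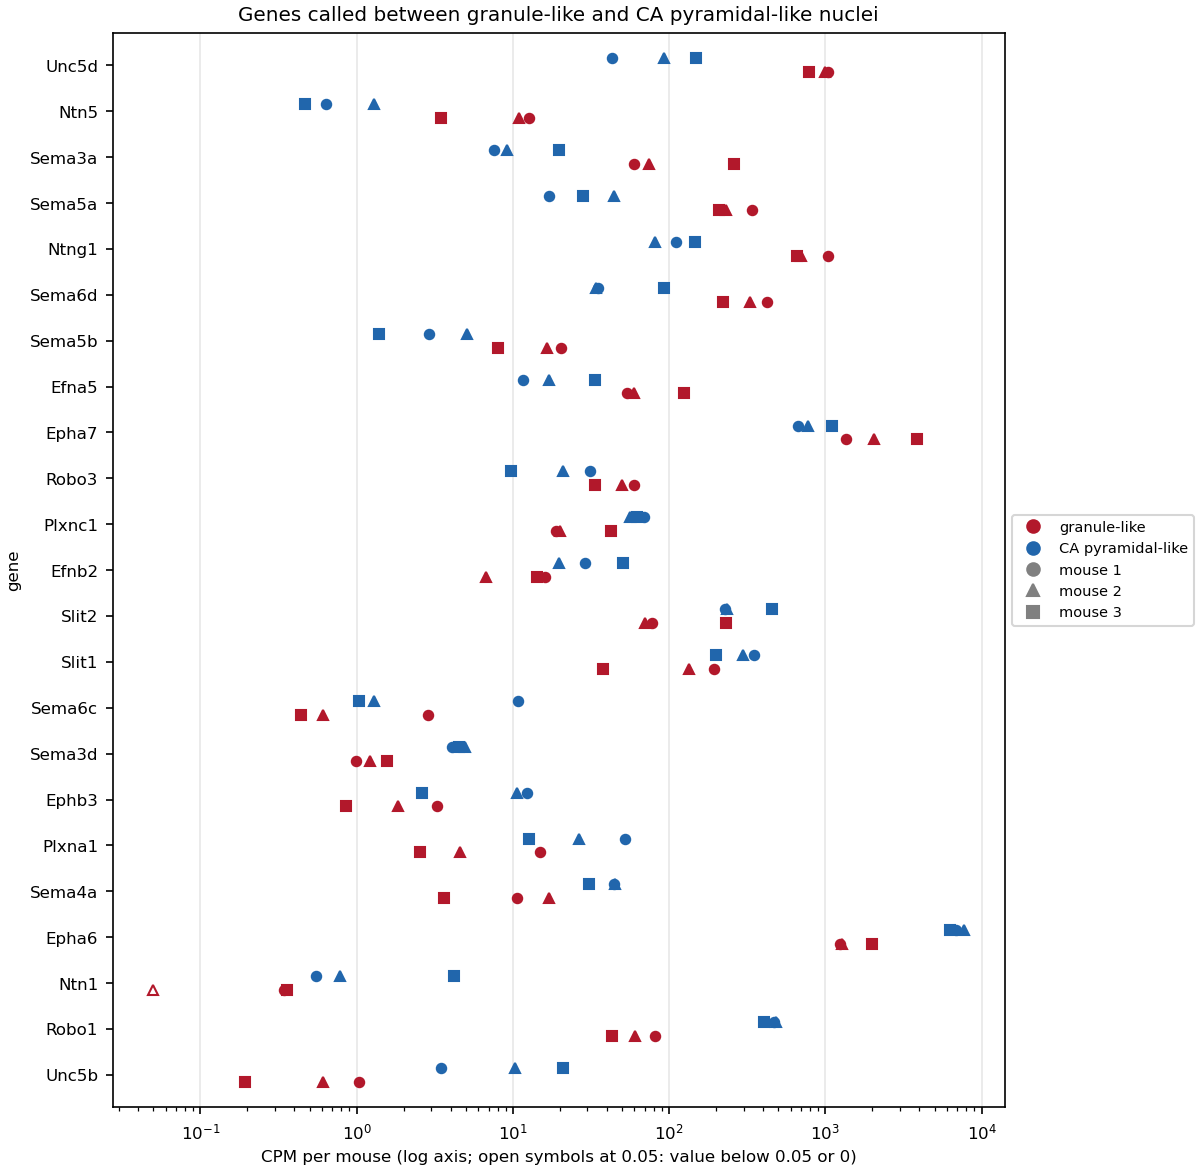
CPM per mouse on a log axis for the 23 genes called between granule-like (red) and CA pyramidal-like (blue) nuclei, with symbols for the mice, ordered by log2 fold change. Red and blue are apart for Robo1, Unc5d and Sema3a, and overlap for Plxna1, Ephb3, Sema6c and Slit2.

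Of 37 intracellular effectors of these receptors, 36 were tested and 11 called, 5 higher and 6 lower in granule-like nuclei. Srgap1, which acts downstream of Robo receptors, stood at 6.51, 4.57 and 5.75 CPM in granule-like nuclei against 65.7, 58.7 and 159 in pyramidal-like nuclei (log2 fold change -3.99, with an SE of 0.31 and an adjusted p of 0.000388). Its direction was that of Robo1. The exchange factors Vav3 (3.55) and Tiam1 (2.70) and the Rac inhibitor Chn2 (3.15) were called higher, and the exchange factors Vav2 (-2.91) and Farp1 (-2.70) lower. Of 24 other guidance ligands and receptors, 23 were tested and 7 called, all lower, led by Met (-3.79), Cntn2 (-2.15) and Rgma (-2.13), with Met at 0.247, 0 and 0.110 against 1.69, 1.04 and 2.82 CPM. Calls were lost for Plxnc1 and Sema6c without mouse 1, for Plxnc1 and Ntn1 without mouse 2, and for Slit1 without mouse 3, where Ntn1 had too few counts to be tested; with CA1-like nuclei alone in place of all pyramidal-like nuclei the calls of Slit2 and Sema3d were lost, and that of Efna5 was lost at a coarser clustering and with each library clustered alone. Summed astrocyte markers (10 genes) stood at 552, 415 and 443 CPM in granule-like and 2119.6, 1286 and 2224 CPM in pyramidal-like nuclei, oligodendrocyte markers (11 genes) at 528, 548 and 446 against 105, 247 and 79.5 CPM, and inhibitory markers (11 genes), which are higher in the interneuron-like classes where Efna5, Unc5d, Sema5a and Sema6d had their highest means, at 172, 143 and 587 against 42.0, 111 and 95.1 CPM; their part in these differences was not tested.

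CA3-like nuclei, the pyramidal neurons that receive the mossy fibers, had higher levels of Nrp2, Slit2, Unc5c, Ephb1 and the 2 class 5 semaphorins than CA1-like nuclei, and lower levels of Sema3a and Epha10. Of the 55 members tested, 17 were called, 13 higher and 4 lower in CA3-like nuclei; over all 13989 genes tested 9.94% were called, 5.30% higher and 4.64% lower. The members' share was 30.9%, with a median absolute log2 fold change of 0.66 against 0.27 over all genes. The values of the 2 classes did not overlap for 13 of the 17, a count not made over all genes.

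Among the ligands, Slit2 stood at 617, 450.0 and 1100.2 CPM in CA3-like nuclei of mice 1, 2 and 3 and at 92.5, 95.4 and 221 in CA1-like nuclei, and its log2 fold change was 2.48, with an SE of 0.15 and an adjusted p of 0.000145. Sema5a stood at 48.9, 99.6 and 77.1 against 5.83, 8.94 and 8.81 CPM (log2 fold change 3.25, with an SE of 0.13 and an adjusted p of 7.03e-05). In both genes all 3 CA3-like values were above all CA1-like values. Sema5b was called at 3.30, from 7, 0 and 26 UMIs in CA1-like nuclei. Sema3d (2.21) and Ntng2 (1.74) were called higher too, as was Sema6a, a ligand of plexins A2 and A4, at 14.6, 19.9 and 68.9 against 8.35, 6.05 and 20.3 CPM. Sema3a was called in the other direction, at 1.33, 3.56 and 6.61 CPM in CA3-like against 10.3, 12.4 and 25.6 in CA1-like nuclei (log2 fold change -2.08, with an SE of 0.25 and an adjusted p of 0.00175), as was the ephrin Efnb2 (-1.24). Slit3 stood at 1053, 1030.5 and 1135 CPM in CA3-like and 1444, 1576 and 1542 in CA1-like nuclei, without overlap but with an adjusted p of 0.0600.

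Among the receptors, Nrp2, the co-receptor of Sema3f, stood at 218, 197 and 264 CPM in CA3-like and 39.4, 26.5 and 57.6 in CA1-like nuclei, with a log2 fold change of 2.54, with an SE of 0.13 and an adjusted p of 8.70e-05. Nrp1, the co-receptor of Sema3a, stood at 690.3, 764 and 1250.2 against 411, 512 and 1093 CPM, values that overlap, and its log2 fold change of 0.55 was under the limit of 1. No plexin was called among 6 tested. Ephb1, a receptor of B ephrins, stood at 206, 376 and 140.4 CPM in CA3-like and 4.36, 11.6 and 10.8 in CA1-like nuclei, with a log2 fold change of 4.73, with an SE of 0.33 and an adjusted p of 0.000241. Its values lay further apart than those of Ephb2 (1.34) and Epha3 (1.34), also called higher, and Epha10, a receptor without kinase activity, was called lower at 51.4, 52.6 and 115 against 172, 142 and 287 CPM (log2 fold change -1.45). Of the netrin receptors, Unc5c stood at 2060.3, 1177 and 1771 CPM in CA3-like and 326, 225 and 447 in CA1-like nuclei (log2 fold change 2.39, with an SE of 0.16 and an adjusted p of 0.000189). Dcc, with which Unc5 receptors can act, stood at 2235, 1614 and 1738 against 975, 716 and 634 CPM (log2 fold change 1.32, with an SE of 0.15 and an adjusted p of 0.00138). Unc5d (1.21) was called higher and Unc5b (-1.88) lower, both with overlapping values. Of the 3 Robos tested none was called; Robo1 was at 749, 672 and 481 against 344, 295 and 366 CPM, a log2 fold change of 0.94, under the limit of 1 (adjusted p = 0.00673).

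**Figure D3:**
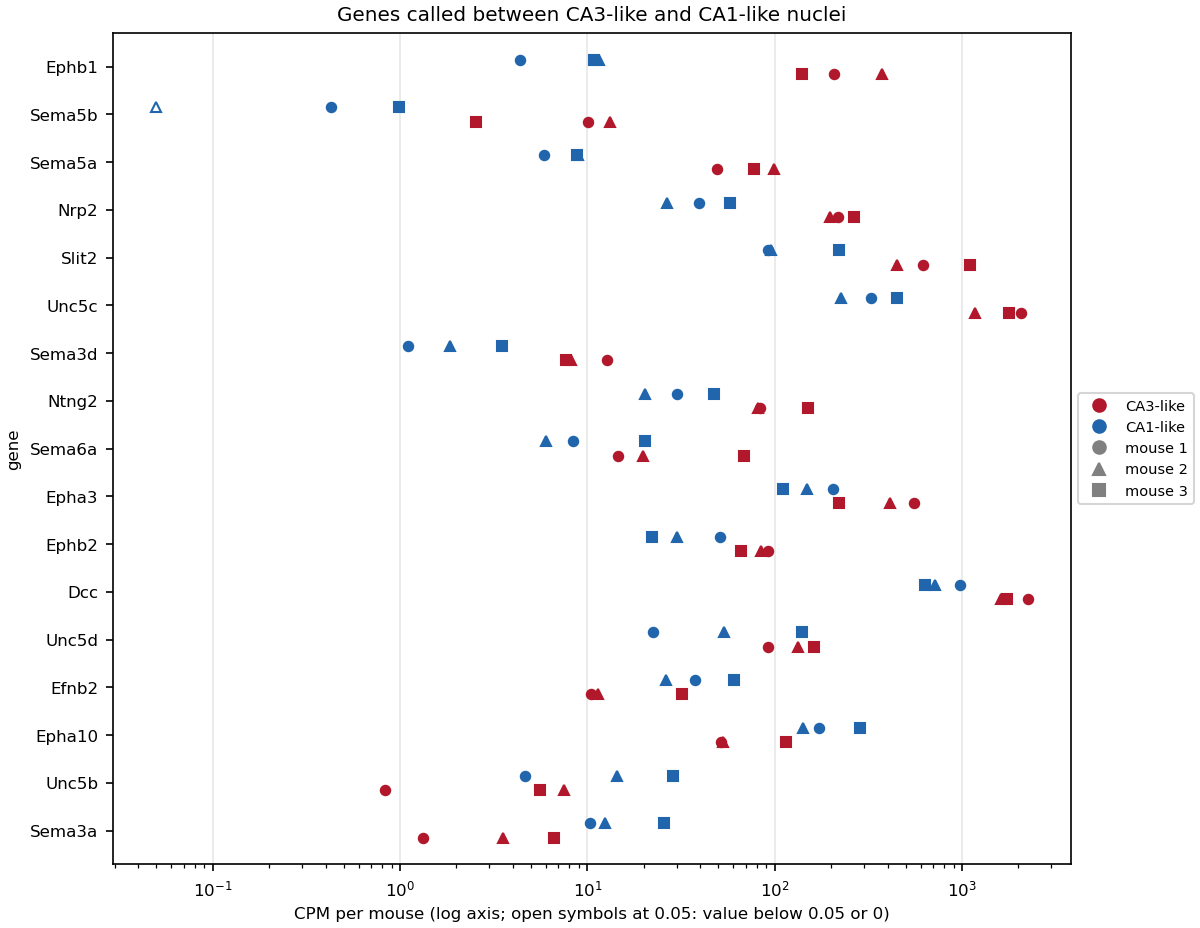
CPM per mouse on a log axis for the 17 genes called between CA3-like (red) and CA1-like (blue) nuclei, with symbols for the mice, ordered by log2 fold change. Ephb1, Sema5a, Nrp2 and Unc5c show separate red and blue groups, and Unc5b, Efnb2, Unc5d and Sema6a show overlap.

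Of the effectors, 35 were tested and 8 called, 2 higher and 6 lower in CA3-like nuclei. Dpysl5, a collapsin response mediator protein, stood at 1.82, 3.91 and 2.36 CPM in CA3-like against 10.9, 15.5 and 57.7 in CA1-like nuclei (log2 fold change -3.41, with an SE of 0.44 and an adjusted p of 0.00252). Farp1 (-2.95) and Vav2 (-2.18) were also called lower, and the actin-binding Ablim1 (1.66) and the exchange factor Dock1 (1.59) higher. Of the other guidance ligands and receptors, 23 were tested and 4 called, all lower, including Met (-3.11), Adgrl3 (-1.71) and Flrt1 (-1.40), the last 2 being partners in adhesion. Without mouse 1 the calls of Efnb2, Sema5b and Unc5d were lost, and without mouse 2 these and those of Sema3d and Sema6a. The calls of Efnb2, Epha10 and Epha3 were lost at a coarser clustering, and those of Efnb2, Epha3 and Unc5b with each library clustered alone. With nuclei thinned to 1000 UMIs each, 30 members were tested and 11 called, 11 higher and 0 lower in CA3-like nuclei. Efnb2 and Epha10 lost their calls there. Sema3a and Unc5b, called lower in the main fit, had too few counts to be tested with thinned nuclei. Summed astrocyte markers stood at 499.8, 653 and 1160.0 CPM in CA3-like against 2870.3, 2036 and 2758 CPM in CA1-like nuclei, and their part in these differences was not tested.

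Inhibitory neuron-like nuclei, the interneurons that release GABA, had higher levels of Robo1, Unc5d, Sema3c and 4 membrane-bound semaphorins than glutamatergic neuron-like nuclei, and lower levels of Slit1, Slit3, Nrp1, Ntng2 and 3 EphA receptors. Of the 64 members tested, 24 were called, 10 higher and 14 lower in inhibitory nuclei; over all 16599 genes tested 15.8% were called, 8.10% higher and 7.74% lower. The members' share was 37.5%, with a median absolute log2 fold change of 0.72 against 0.35 over all genes. The values of the 2 classes overlapped only for Unc5a among the 24, a count not made over all genes.

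Among the ligands, Sema3c stood at 66.4, 56.8 and 34.4 CPM in inhibitory nuclei of mice 1, 2 and 3 and at 3.36, 5.22 and 2.94 in glutamatergic nuclei, with a log2 fold change of 3.66, with an SE of 0.20 and an adjusted p of 0.00114. Sema6c stood at 45.6, 26.7 and 18.1 against 6.99, 2.42 and 1.07 CPM (log2 fold change 3.26, with an SE of 0.28 and an adjusted p of 0.00243). Both groups of values were lowest in mouse 3, and the inhibitory values were higher in every mouse. Ntn4, a netrin of basement membranes, was called higher by 2.76, Sema4g by 2.35, Sema6a by 1.63 and Sema6d by 1.01 on the log2 scale. Efna5, an ephrin of the A group, stood at 342, 234 and 532 against 103, 101 and 145 CPM and was called higher as well. Slit3 stood at 156, 411 and 175 CPM in inhibitory and 1184, 1079 and 1251 in glutamatergic nuclei (log2 fold change -2.51, with an SE of 0.36 and an adjusted p of 0.00706), and the inhibitory value was highest in mouse 2. Slit1 was called lower as well, at -2.04, and Slit2 was not called. Sema3e stood at 53.1, 181 and 128 against 267, 417 and 763 CPM (log2 fold change -2.15, with an SE of 0.30 and an adjusted p of 0.00701). Ntng2 (-3.10) and Ntn5 (-2.30) were called lower too, as was Sema3f (-2.13), which rested on 4, 1 and 4 UMIs in inhibitory nuclei.

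Among the receptors, Robo1 stood at 1310.0, 1117 and 1327 CPM in inhibitory and 377, 407 and 312 in glutamatergic nuclei, with a log2 fold change of 1.67, with an SE of 0.14 and an adjusted p of 0.00242. Robo3 was called in the other direction (-3.16). Unc5d stood at 1651, 1232 and 1684 against 508, 377 and 483 CPM (log2 fold change 1.63, with an SE of 0.11 and an adjusted p of 0.00161). Unc5c, the receptor at its highest level in Lamp5-like nuclei, stood at 1477, 1209 and 1362 against 822, 675 and 813 CPM over all inhibitory nuclei, a log2 fold change of 0.70 and so not called. Nrp1 stood at 90.8, 218 and 122 CPM in inhibitory and 422, 522 and 1014 in glutamatergic nuclei (log2 fold change -2.29, with an SE of 0.37 and an adjusted p of 0.00988). Plxna3 was called higher (1.52) and Plxnd1 lower (-2.04). Of 7 EphA receptors tested, Epha4 (-2.21), Epha7 (-1.67) and Epha6 (-1.08) were called lower and none higher. Epha4 stood at 76.4, 162 and 50.6 CPM in inhibitory and 411, 395 and 302 in glutamatergic nuclei, again with its highest inhibitory value in mouse 2. Ephb1 (-2.23) and Unc5a (-1.24) were the other receptors called lower.

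**Figure D4:**
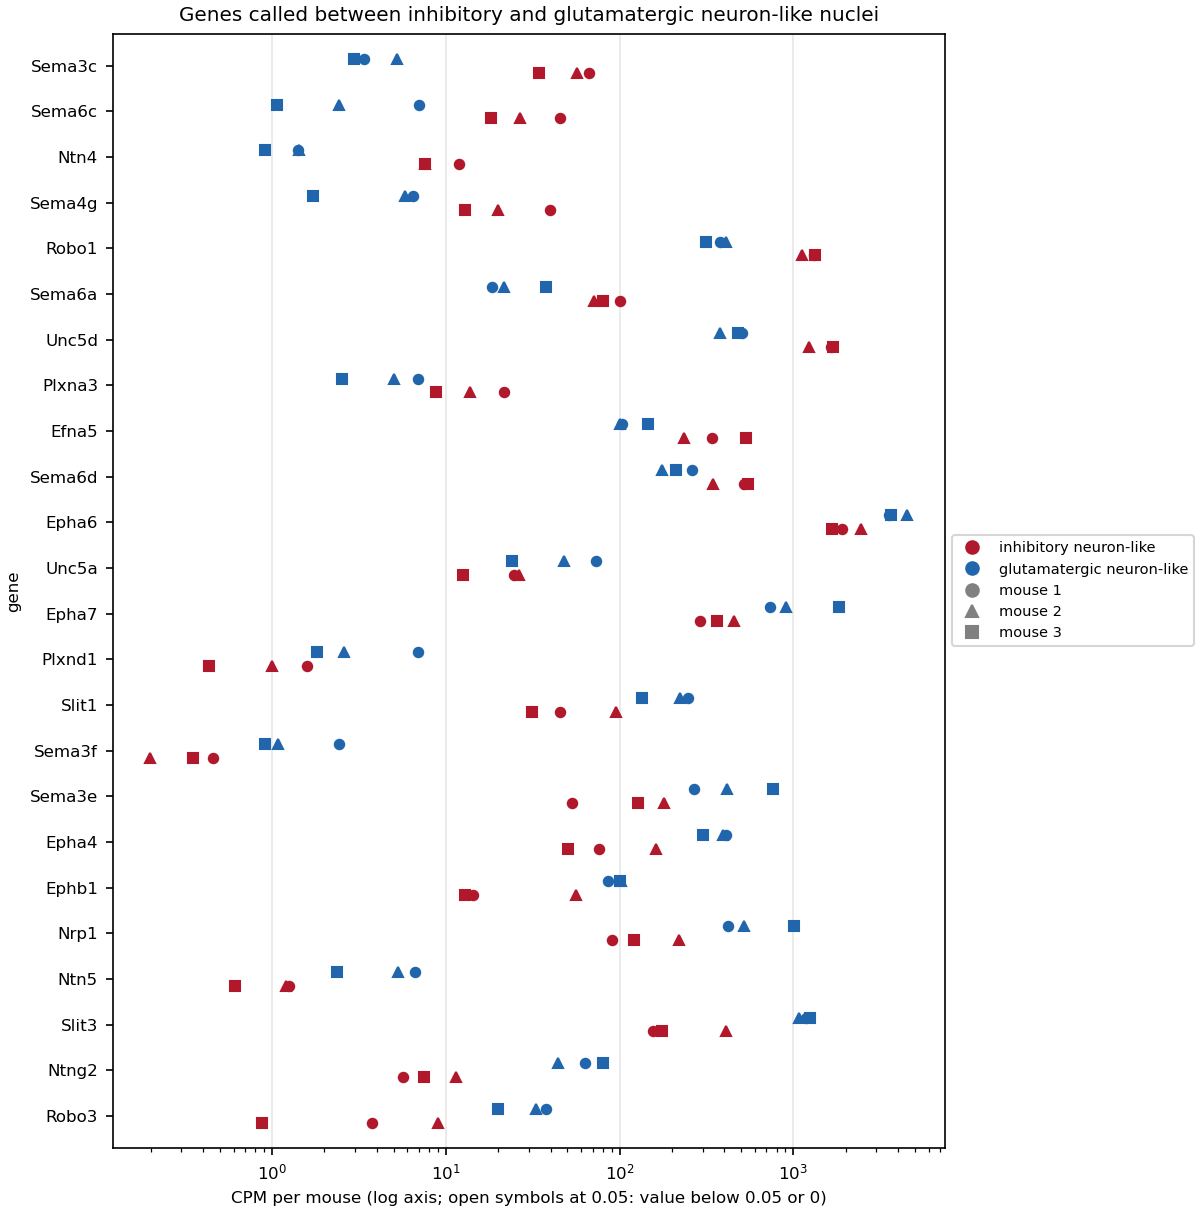
CPM per mouse on a log axis for the 24 genes called between inhibitory (red) and glutamatergic (blue) neuron-like nuclei, with symbols for the mice, ordered by log2 fold change. Sema3c, Sema6c and Robo1 lie to the right in inhibitory nuclei and Slit3, Ntng2 and Nrp1 in glutamatergic nuclei, and only Unc5a overlaps.

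All 37 effectors were tested and 10 called, 7 higher and 3 lower in inhibitory nuclei. Vav2, an exchange factor downstream of Eph receptors, stood at 41.6, 36.3 and 35.9 CPM in inhibitory against 5.15, 5.99 and 2.44 in glutamatergic nuclei (log2 fold change 3.07, with an SE of 0.24 and an adjusted p of 0.00200). Limk1, which phosphorylates cofilin (2.34), and Mical1, which oxidises actin below plexins (2.04), were called higher, and Vav3 (-1.71), Chn1 (-1.27) and Kalrn (-1.22) lower. Of the other guidance ligands and receptors, 23 were tested and 5 called, with Met (2.35) and Flrt2 (1.01) higher and the Nogo receptor Rtn4r (-2.42), its co-receptor Lingo1 (-2.12) and Boc (-2.00) lower. Without mouse 1, 15 members were called, and Epha6, Epha7, Ephb1, Nrp1, Plxnd1, Robo3, Sema3e, Sema3f and Unc5a lost their calls; without mouse 3, Epha6 and Sema6d did, as both did with thinned nuclei, and Sema6d, whose fold change is close to the limit, also lost its call at a coarser clustering and without the filter on low counts. Summed glutamatergic markers in inhibitory nuclei were 22.4%, 43.2% and 28.7% of their level in glutamatergic nuclei, with none of the 10 at 0 and mouse 2 highest, and astrocyte markers stood at 256, 456 and 346 CPM against 1237, 883 and 1422 CPM in glutamatergic nuclei; their part in these differences was not tested.

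OPC-like nuclei, the precursors that divide and give rise to oligodendrocytes, had higher levels of Ntn1, Sema5b, Sema3d and Ntn4 than the myelinating oligodendrocyte-like nuclei, and lower levels of Unc5b, Efnb3, Ephb1 and Plxnb3. Of the 59 members tested, 13 were called, 8 higher and 5 lower in OPC-like nuclei; over all 12337 genes tested 15.7% were called, 8.44% higher and 7.31% lower. The members' share was 22.0%, with a median absolute log2 fold change of 0.80 against 0.42 over all genes. None of the 13 overlapped between the classes, a count not made over all genes. With edgeR's quasi-likelihood test and mice 1 and 2 alone, no member and no gene was called (17 members had an unadjusted p under 0.05), and DESeq2 on the same 2 mice called 9 members; without mouse 1 edgeR called 5 members and without mouse 2 it called 29. The calls lost without mouse 1 were those of Efna1, Ntn4, Plxna3, Plxnb3, Plxnd1, Sema5a, Sema6c and Unc5b; those of Sema5a and Sema6c were also lost at a coarser clustering, that of Sema6c with DESeq2 on all 3 mice, and that of Plxnd1 with at least 1000 genes per nucleus.

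Among the ligands, Ntn1 stood at 220.3, 59.7 and 157 CPM in OPC-like nuclei of mice 1, 2 and 3 and at 1.38, 2.41 and 1.04 in oligodendrocyte-like nuclei, from 7, 7 and 4 UMIs. The OPC-like values were far above in every mouse, lowest in mouse 2, and the log2 fold change was 6.45, with an SE of 0.53 and an adjusted p of 0.00641. Sema5b stood at 275, 213 and 323 against 1.97, 11.4 and 2.87 CPM (log2 fold change 5.88, with an SE of 0.65 and an adjusted p of 0.00809). Sema3d stood at 369, 221 and 701 against 21.8, 17.9 and 28.2 CPM (log2 fold change 4.09, with an SE of 0.29 and an adjusted p of 0.00540). Mouse 2 had the lowest OPC-like value for both and the highest oligodendrocyte-like value for Sema5b. Ntn4 (4.58), Sema5a (2.05) and Sema6c (1.82) were called higher too, Ntn4 from 4, 8 and 0 UMIs in oligodendrocyte-like nuclei. Efnb3, an ephrin known in myelin, was called lower, at 18.4, 15.9 and 6.30 CPM in OPC-like against 212, 77.9 and 102 in oligodendrocyte-like nuclei (log2 fold change -3.31, with an SE of 0.35 and an adjusted p of 0.00773), as was Efna1 (-2.37). Sema6d stood at 959.8, 436 and 856 against 529, 299 and 268 CPM, with overlap, and did not pass (adjusted p = 0.0799).

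Among the receptors, Unc5b, a receptor of Ntn1, stood at 5.61, 8.95 and 1.14 CPM in OPC-like and 95.3, 38.9 and 62.9 in oligodendrocyte-like nuclei (log2 fold change -3.80, with an SE of 0.56 and an adjusted p of 0.0134). Ntn1 and Unc5b were thus called in opposite directions between these 2 classes. Dcc stood at 1840.3, 1204 and 1574 against 534, 754 and 640.4 CPM, higher in OPC-like nuclei of all 3 mice without overlap, and did not pass the test (log2 fold change 1.22, adjusted p = 0.0574). Ephb1 stood at 82.5, 98.5 and 116 CPM in OPC-like and 538, 348 and 512 in oligodendrocyte-like nuclei (log2 fold change -2.25, with an SE of 0.26 and an adjusted p of 0.00827). All 9 plexins were tested: Plxnd1 (2.37) and Plxna3 (2.32) were called higher and Plxnb3 lower, at 72.9, 33.8 and 60.1 against 209, 82.7 and 129 CPM (log2 fold change -1.33, with an SE of 0.18 and an adjusted p of 0.0115). Plxnb1 stood at 28.8, 12.9 and 43.5 against 35.6, 16.9 and 43.3 CPM and was not called.

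**Figure D5:**
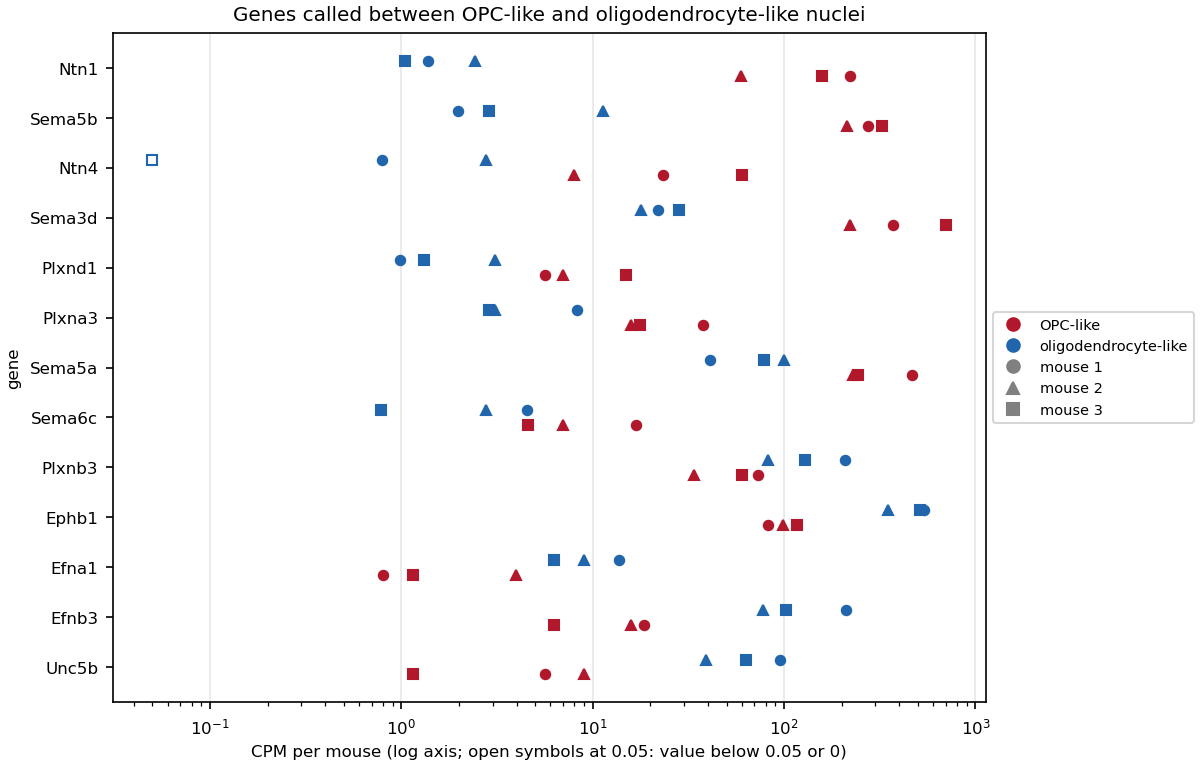
CPM per mouse on a log axis for the 13 genes called between OPC-like (red) and oligodendrocyte-like (blue) nuclei, with symbols for the mice, ordered by log2 fold change; an open symbol marks a value of 0. Ntn1, Sema5b and Sema3d lie to the right in OPC-like nuclei and Unc5b, Efnb3 and Ephb1 in oligodendrocyte-like nuclei, with no overlap in any of the 13.

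Of the effectors, 36 were tested and 8 called, 5 higher and 3 lower in OPC-like nuclei, among them Mical1 (4.62), Dpysl3 (3.34) and Trio (2.27) higher, and the Rac-activated kinase Pak1 (-2.91) and Dpysl2 (-1.37) lower. Of the other guidance ligands and receptors, 22 were tested and 10 called, 6 higher and 4 lower. Dscam, an adhesion receptor that also binds netrin, stood at 2950.0, 1419.7 and 1914 CPM in OPC-like against 95.1, 295 and 130.0 in oligodendrocyte-like nuclei (log2 fold change 3.68, with an SE of 0.61 and an adjusted p of 0.0171), and the planar polarity receptor Ptk7 (3.73) and the adhesion protein Chl1 (2.06) were called higher. The contactin Cntn2, at 3.20, 19.9 and 6.30 against 411, 152 and 236 CPM, was lower by a log2 fold change of -4.83, with Rgmb (-2.08) and Rgma (-1.62). Glutamatergic markers summed to 18.4%, 54.7% and 18.4% of the glutamatergic level in OPC-like and 24.0%, 57.0% and 23.4% in oligodendrocyte-like nuclei, with none of the 10 at 0. Other lists were higher in OPC-like than in oligodendrocyte-like nuclei: astrocyte markers (10 genes) stood at 4498, 1438 and 3035 against 347, 590.1 and 466 CPM, inhibitory markers (11 genes) at 3736, 2095 and 5192 against 1886, 1353 and 2046 CPM, and mural markers (8 genes, 3 or 4 of them at 0 in OPC-like nuclei of each mouse) at 353, 94.5 and 206 against 15.7, 13.8 and 5.74 CPM. Cspg4 is in both the mural and the OPC list, so the mural sum includes an OPC marker. The part of these lists in the differences was not tested. The classes kept their own markers apart, with OPC markers at 14956, 7316 and 16034 CPM in OPC-like and 251, 573 and 281 CPM in oligodendrocyte-like nuclei.

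Some members overlap a neighbour as annotated. On the same strand 6 of the 71 overlap another gene, among them Ephb1, Ntn1, Ntng2, Slit2 and Slit3, whose counts may be affected. On the opposite strand 22 overlap a gene. Reads in these overlaps were not examined.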

How the data were processed

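The authors deposited unnormalized UMI counts. The headers of the count matrices give Cell Ranger 7.1.0 for mouse 3 and Cell Ranger 7.0.0 for the other mice. The build was mm10, per the submitters' processing notes. The sources used here do not give the treatment of intronic reads. Per the labels' protocols, nuclei were sorted by flow cytometry after propidium iodide staining. Barcodes under 500 genes or above 5% mitochondrial UMIs were dropped, and doublets were called with Scrublet, by its automatic threshold in mice 1 and 3 and by the expected rate in mouse 2, where the automatic threshold called 0; 732, 1468 and 265 barcodes were removed. Nuclei were clustered with scanpy 1.11.5 (3000 variable genes without the members and the pathway lists, 30 components, 20 neighbours, Leiden resolution 1.5), giving 37 clusters, and mixed clusters were split once, giving 78. Most clusters were named when at least 3 of a class's markers were 2-fold up, with a mean log2 fold of at least 1 and a lead of 0.25. Subicular or cortical glutamatergic-like clusters needed 4 markers and a mean of 0.3. Other glutamatergic clusters, with 771, 2297 and 460 nuclei in mice 1, 2 and 3, needed 4 glutamatergic markers 2-fold up against inhibitory and glial nuclei. These naming rules were set after the clusters had been seen, and the classes are not the authors' own. 1 marker had no match.

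UMI counts were summed per mouse and class, and tested with edgeR 4.0.16 (R 4.3.3; quasi-likelihood, TMM, low counts filtered, mouse as a block, Benjamini-Hochberg), after the script had been tested on simulated data. Fold changes are the fitted log2 values; per-mouse values are CPM, and class means use mice with at least 15 nuclei. Mouse belongs in the fit since both sums come from 1 animal, and deviations of the paired sums correlated in every mouse, at 0.327 to 0.751. The 3 mice are separate animals of 1 group. Total UMIs were 100230288, 50931257 and 140527761. The rule was to name called members, up to 12 in each direction; Plxnc1 (granule-like against pyramidal-like), Unc5a and Epha6 (inhibitory against glutamatergic) lie past that limit and were named after their values were seen. Pathway genes named were the 3 largest called in each direction, except 1 that is not reported here. The members and lists were chosen with earlier results of these data known. Alternatives were DESeq2 1.42.0, no low-count filter, no replicate block, each mouse left out, another resolution, libraries clustered alone, thinned nuclei, at least 1000 genes, and CA1-like nuclei alone; DESeq2 without mouse 3 was added after seeing the data.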

Additional observations from a re-analysis of the deposited data

How the results depend on the processing

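Over 782 refits of the 77 called differences none changed direction, 679 stayed called and 103 did not. Differences no longer tested in a refit were left out of these counts. With thinned nuclei 53 stayed called and 4 did not, and the rest of the 77 had too few counts to be tested. The fit without the replicate block, which ignores that both classes come from 1 animal, called 13 members in place of 23 for granule-like against CA pyramidal-like nuclei, 4 in place of 17 for CA3-like against CA1-like, 15 in place of 24 for inhibitory against glutamatergic and 11 in place of 13 for OPC-like against oligodendrocyte-like nuclei. With 1 mouse left out, the counts ranged from 21 to 24, from 14 to 18, from 15 to 27 and from 0 to 29 in the same order; the 0 came without mouse 3, with 2 mice in the fit, where edgeR called no gene at all, 17 members had an unadjusted p under 0.05 and DESeq2 called 9. DESeq2 with all 3 mice called 20 members between OPC-like and oligodendrocyte-like nuclei, 15 higher and 5 lower, against 8 and 5 with edgeR. With nuclei thinned to 1000 UMIs, 11 members were called between CA3-like and CA1-like nuclei, 11 higher and 0 lower, with 30 members tested in place of 55. The other settings moved each total by less than 1.5 times. By direction, OPC-like nuclei had 14 members called higher without the filter on low counts and 5 with thinned nuclei, in place of 8, and granule-like nuclei had 8 called lower with thinned nuclei, in place of 13. With mouse as a block, p-values measure how the class difference within a mouse varies over 3 mice of 1 genotype. Classes of few nuclei, above all endothelial-like, limit what can be detected.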
